A study of Mus musculus with 6 samples.

Results

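The genes described here are 30 genes of the hypoxia-inducible factor (HIF) pathway, chosen by name: 8 regulators, which are the HIF subunits and the enzymes that control them, and 22 genes known as HIF targets outside glycolysis. Each was a row of a deposited expression table of 55414 Ensembl gene identifiers, and all 30 were found in it, Ero1a under its older symbol. The table came from RNA sequencing of TM4 cells, an immortal line from mouse testis that serves as a Sertoli cell model; Sertoli cells are the nurse cells of the seminiferous tubule. It held 3 libraries of a group labelled VC and 3 libraries of a control group of the same line. The agent given to the VC cells is unclear. The titles point to vitamin C, though the sample titles carry only the letters VC, and valine is what the agent field and the design text say. No dose, exposure time, culture oxygen or cell density was given, and separate cultures are not stated for the replicates, so p-values reflect sample-to-sample spread that could be technical.

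HIF is a dimer of an oxygen-sensitive alpha subunit and the stable subunit Arnt. In oxygenated cells prolyl hydroxylases of the Egln family mark the alpha subunit, Vhl binds the marked form and sends it for degradation, and Hif1an hydroxylates a further residue that blocks coactivator binding. These hydroxylases use iron, oxygen and 2-oxoglutarate, and ascorbate helps to keep their iron reduced. When oxygen is low the alpha subunit accumulates, pairs with Arnt and binds hypoxia response elements, whose core letters are ACGTG or GCGTG. Because the alpha subunit is controlled mainly as protein, the mRNA levels given here do not measure HIF activity.

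Of the 30 genes, 25 had promoter windows in the RefSeq table (build GRCm38.p6), each running from 250 bases before to 50 bases after a transcript start. The expression table was made on GRCm39, so these coordinates are those of the RefSeq windows only. The windows of 5 genes with patterns described below are shown. Fam162a had the lowest fold change, and Ero1a and Bnip3 varied strongly between libraries of 1 group. Egln1 is the main oxygen sensor and Mif the most abundant member. Ndrg1 and Bhlhe40, which had the smallest limma adjusted p-values of the members, had no window, nor did Epas1, Siah2 and Bnip3l. Sequences run 5′ to 3′ on the strand of the gene, and capitals mark each match of ACGTG or GCGTG on either strand (CACGT and CACGC are the same cores read on the opposite strand).
Fam162a, chr16:36071512-36071811, minus strand: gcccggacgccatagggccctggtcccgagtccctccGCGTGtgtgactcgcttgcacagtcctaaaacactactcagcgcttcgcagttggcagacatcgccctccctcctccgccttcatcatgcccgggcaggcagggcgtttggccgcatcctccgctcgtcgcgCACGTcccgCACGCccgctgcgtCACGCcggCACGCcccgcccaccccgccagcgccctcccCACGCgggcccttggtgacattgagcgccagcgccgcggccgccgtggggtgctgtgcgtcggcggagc
Ero1a, chr14:45318523-45318822, minus strand: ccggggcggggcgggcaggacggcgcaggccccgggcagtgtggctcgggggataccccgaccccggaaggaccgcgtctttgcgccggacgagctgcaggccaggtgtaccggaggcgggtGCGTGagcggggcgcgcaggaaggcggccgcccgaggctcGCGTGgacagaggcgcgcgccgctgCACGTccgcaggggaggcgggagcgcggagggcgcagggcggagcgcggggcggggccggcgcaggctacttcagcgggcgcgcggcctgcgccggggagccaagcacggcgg
Bnip3, chr7:138909457-138909756, minus strand: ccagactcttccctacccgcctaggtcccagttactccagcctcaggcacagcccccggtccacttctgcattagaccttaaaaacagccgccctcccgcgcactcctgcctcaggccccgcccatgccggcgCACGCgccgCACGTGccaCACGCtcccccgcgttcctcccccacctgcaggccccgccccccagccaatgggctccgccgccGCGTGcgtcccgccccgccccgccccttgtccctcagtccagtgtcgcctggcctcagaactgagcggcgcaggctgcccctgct
Egln1, chr8:124949205-124949504, minus strand: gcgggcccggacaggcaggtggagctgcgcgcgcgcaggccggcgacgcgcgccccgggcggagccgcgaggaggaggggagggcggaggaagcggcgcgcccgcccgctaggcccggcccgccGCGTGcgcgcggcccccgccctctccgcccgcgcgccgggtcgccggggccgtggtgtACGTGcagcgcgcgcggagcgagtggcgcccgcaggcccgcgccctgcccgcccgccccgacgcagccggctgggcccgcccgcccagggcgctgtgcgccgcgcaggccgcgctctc
Mif, chr10:75860228-75860527, minus strand: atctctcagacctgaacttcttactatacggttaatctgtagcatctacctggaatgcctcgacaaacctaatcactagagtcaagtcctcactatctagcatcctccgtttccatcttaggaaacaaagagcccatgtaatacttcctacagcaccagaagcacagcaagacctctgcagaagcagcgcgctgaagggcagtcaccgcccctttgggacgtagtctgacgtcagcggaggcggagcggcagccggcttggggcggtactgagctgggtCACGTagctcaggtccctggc

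The Fam162a window held 6 matches within 300 bases, and the Bnip3 window held 5, of which 2 formed the palindrome CACGTG. Mif held 1, which lay after the transcript start. Counted by gene, ACGTG was present for 19 of 25 members (76%), against 29.8% of the 9001 tested genes with a window. GCGTG was present for 16 of 25 members (64.0%), against 57.2% of tested genes. ACGTG also overlaps the palindrome CACGTG, which was present for 7 of 25 members (28.0%) and 12% of tested genes. The median GC content was 64.0% over the 35 member windows and 60.7% over the 11458 windows of tested genes. The members were chosen as known genes of this pathway, so these shares only describe the list, and a match is not a measured binding site.

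The 6 libraries held 20408426 to 22316857 reads over genes of known length, recovered from the deposited values. Among Sertoli markers, 9 of 18 reached a value of 1 in at least 3 libraries, and Wt1, Fshr, Dmrt1, Shbg and Nr0b1 were listed at 0 in all 6. The summed level of these 18 was 244.6 to 254.0 in VC and 220.9 to 228.6 in control libraries, most of it from Inhbb, an inhibin subunit, at 173.1 to 179.5 in VC and 151.1 to 158.3 in control libraries. The 12 germ cell markers summed to 4.37 to 4.69 in VC and 2.36 to 3.90 in control libraries, with Ddx4 at 0, and the 7 endothelial markers to 3.46 to 4.09 in VC and 2.98 to 3.58 in control libraries. The 7 macrophage markers summed to 61.1 to 71.1 in VC and 55.7 to 65.9 in control libraries, with Adgre1 at 0 and most of the sum from Cd14, at 55.8 to 66.98 in VC and 49.7 to 61.8 in control libraries. The 7 Leydig markers summed to 2.74 to 3.53 in VC and 2.34 to 3.31 in control libraries. The 7 myoid markers summed to 664.8 to 681.2 in VC, below the 1030 to 1129 of control libraries. Most of that sum came from the actin gene Acta2, at 378.0 to 386.5 in VC and 588.9 to 645.6 in control libraries. All 5 tested myoid markers had fold changes below 0 (all tested genes, 6467 of 13972). Myh11 and Des stayed below 1 in every library and were not tested. The 84 tested cytosolic ribosomal protein genes had a median log2 fold change of -0.11 and the 32 tested mitochondrially encoded genes -0.12. Control replicate 3 stood apart, with a chi-square per degree of freedom of 8.76 to 15.6 against the other libraries, compared with 2.65 to 6.69 for pairs without it. The part of these differences in the results below was not tested. In bulk RNA, fewer cells of a type and less RNA per cell cannot be told apart.

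Levels of the members covered a wide span on the deposited, length-normalised scale. Mif, a cytokine, ranked 83 of 55414 genes by mean level, followed among members by Fam162a, Cited2 and Wsb1. Epas1, the alpha subunit HIF2, was listed at 0 in all 6 libraries, so Hif1a was the alpha subunit with detectable mRNA among the members. The filter (at least 3 libraries at 1 or above) was passed by 26 members, and these 26 exceeded 1 in every library. The other 4 were Epas1, Pgf, Adm and Car9.

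**Figure D1:**
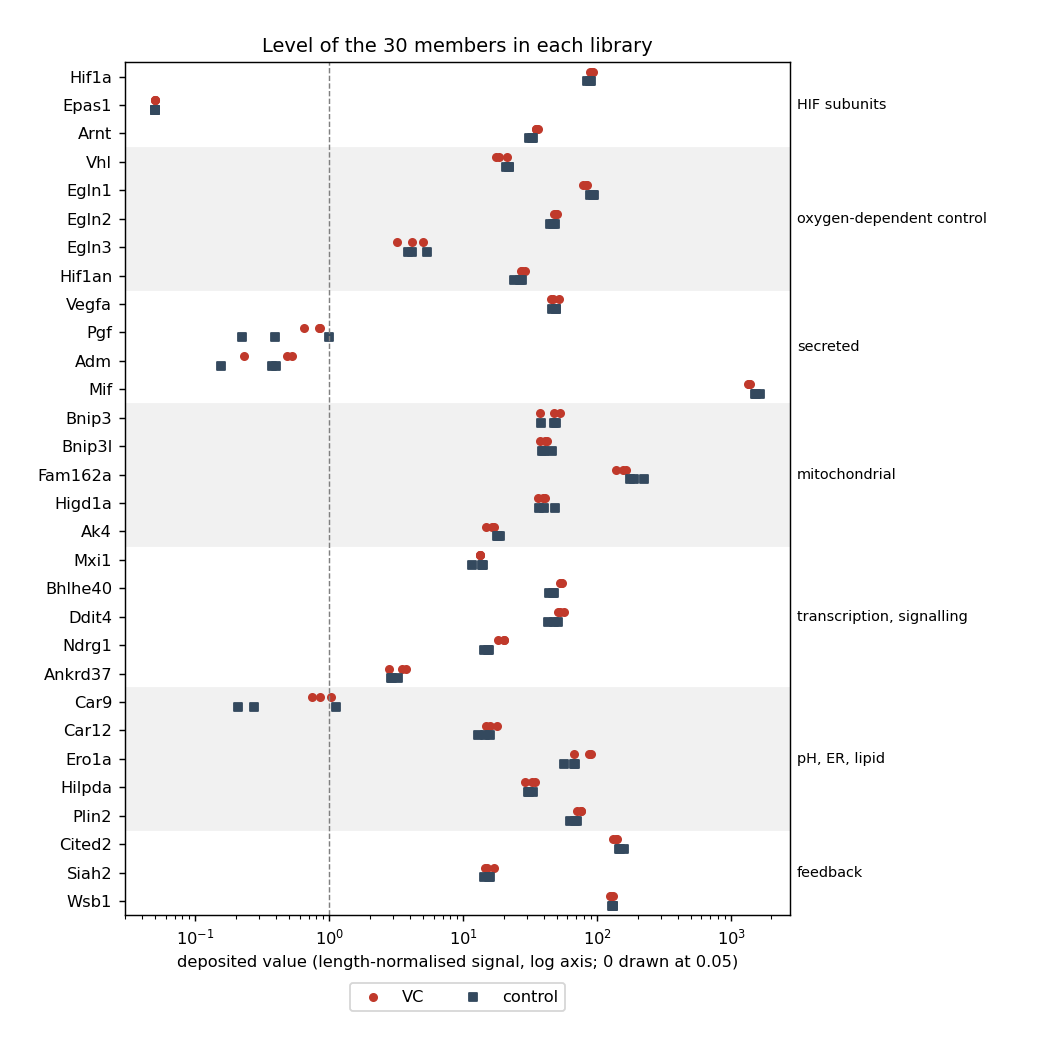
Deposited value (log axis) of each of the 30 members in the 3 VC libraries (circles, upper row of each gene) and the 3 control libraries (squares, lower row), grouped by role, with 0 drawn at 0.05 and a dashed line at 1. Mif lies between 1333 and 1646, Epas1 is at 0, and for most genes the VC and control points overlap or lie close together.

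In VC against control, no member passed the threshold of limma, fitted across 13972 genes with adjustment over all of them (0 of 26), where 0.687% of all tested genes were called, 0.429% higher and 0.258% lower. At an unadjusted p under 0.05 there were 12 members, 6 higher and 6 lower in VC (46.2% of 26), against 17.2% of all tested genes, 9.05% higher and 8.2% lower. The same share was 17.2% over 29 further non-glycolytic HIF targets and 68.4% over 19 glycolytic HIF targets. The members were chosen with earlier results of these data known, so the share only describes the list. As an alternative test, limma-voom on the recovered reads called 4 members: Ndrg1 and Bhlhe40 higher, Mif and Fam162a lower. The same fit called 3.98% of 13772 genes, 2.48% higher and 1.5% lower. The median log2 fold change was 0.06 over the 7 tested regulators and 0.02 over the 19 tested targets, against 0.01 over all tested genes. With libraries scaled to equal totals these medians were 0.14, 0.09 and 0.08, and equal totals added 0.05 to 0.07 to the log2 fold change of every tested member. The 3 VC values lay wholly above or below the 3 control values in 8 of 26 members (30.8%), near the 25.6% of all tested genes. By direction this was 3 members above (all tested genes, 13.9%) and 5 below (all tested genes, 11.6%).

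**Figure D2:**
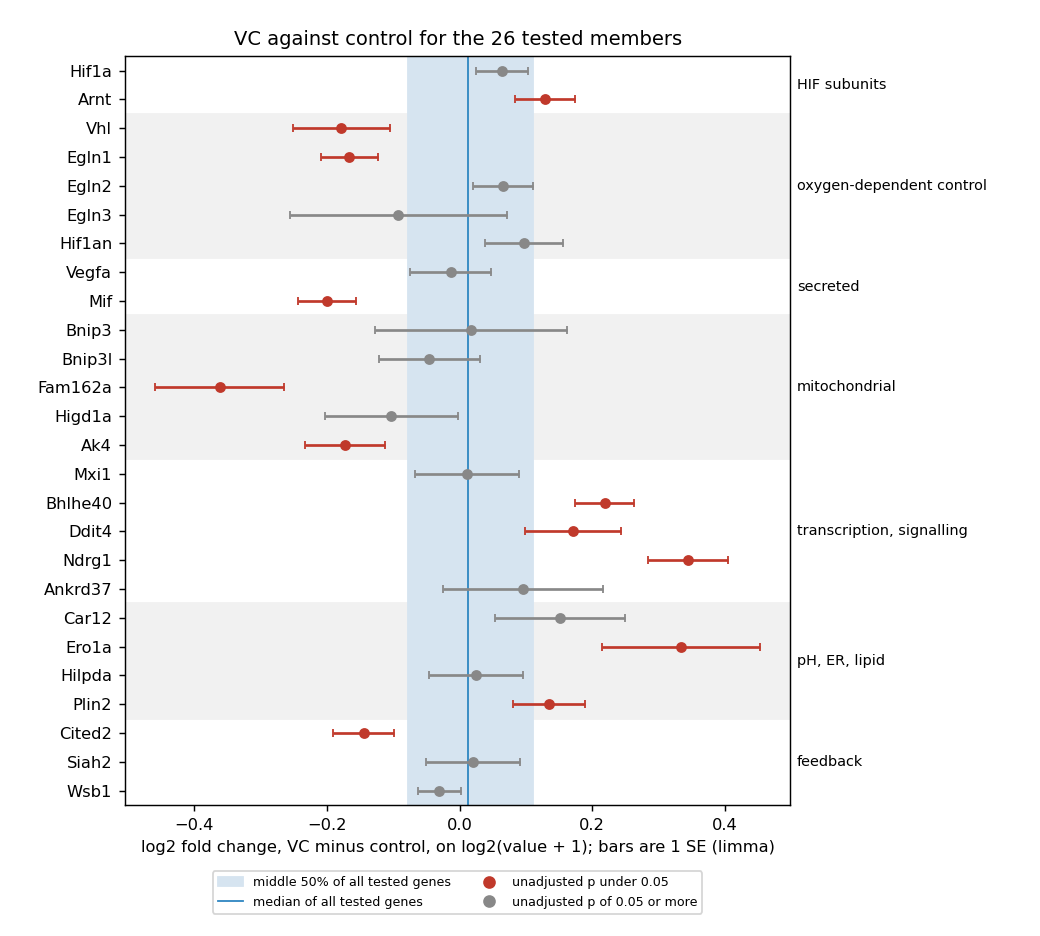
Log2 fold change, VC minus control on log2(value + 1), with 1 SE from limma (n = 3 per group) for the 26 tested members, grouped by role; red marks an unadjusted p under 0.05 and the blue band holds the middle 50% of all tested genes, from -0.08 to 0.11. Ndrg1 and Ero1a lie farthest to the right and Fam162a farthest to the left, and no member passed after adjustment over all genes.

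Among the subunits, Hif1a had values of 93.5, 88.3 and 91.4 in the VC libraries, against 89.5, 87.6 and 84.1 in the control libraries. The groups overlapped, and the log2 fold change was 0.06 (SE 0.039, limma adjusted p = 0.449), which was 0.04 without control replicate 3 and 0.14 with equal totals. Arnt, the shared partner, had 34.8, 34.9 and 36.3 in VC and 33.4, 32.5 and 30.7 in control libraries. Every VC value of Arnt was above every control value, by 0.13 on the log2 scale (SE 0.045, limma adjusted p = 0.227), or 0.20 with equal totals. Part of the Hif1a exons, 5.6%, is shared with an antisense gene that reached a value of at most 1.09, and the labels do not say whether strand was kept.

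The oxygen-dependent controls did not move as a block. Egln1, the main HIF prolyl hydroxylase, had 82.7, 78.2 and 84.3 in VC and 92.3, 88.6 and 94.5 in control libraries. All 3 VC values of Egln1 were lower, with a log2 fold change of -0.17 (SE 0.043; adjusted p = 0.130 by limma), or -0.09 with equal totals. Vhl, the substrate receptor of the ubiquitin ligase, had 21.1, 17.5 and 18.6 in VC and 20.9, 22.0 and 22.1 in control libraries. VC replicate 1 lay within the control values of Vhl, and the log2 fold change was -0.18 (SE 0.073, limma adjusted p = 0.279). It was -0.12 without VC replicate 2 and -0.11 with equal totals.

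The other 3 hydroxylases overlapped between groups. Egln2 averaged 48.7 ± 1.40 in VC and 46.5 ± 1.96 in control libraries (SD, n = 3 each). Hif1an, the asparagine hydroxylase, averaged 27.8 ± 0.979 in VC and 25.95 ± 1.72 in control libraries. Egln3, a hydroxylase that is itself a HIF target, was the lowest of the tested regulators, at 4.13 ± 0.911 in VC and 4.44 ± 0.784 in control libraries, on 66 to 118 recovered reads. Its log2 fold change of -0.09 (SE 0.164) was smaller than its error. It became 0.02 without control replicate 3.

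Among secreted factors, Vegfa, the vascular endothelial growth factor and the classical HIF target, had 51.6, 47.0 and 44.9 in VC and 49.7, 45.9 and 49.2 in control libraries. The groups overlapped, with a log2 fold change of -0.01 (SE 0.061; adjusted p = 0.935 by limma), which was 0.06 with equal totals. Mif had 1333, 1393 and 1368 in VC and 1545, 1514 and 1646 in control libraries. All VC values of Mif were lower, by a log2 fold change of -0.20 (SE 0.044; adjusted p = 0.0981 by limma), by -0.16 without control replicate 3 (adjusted p = 0.0741), by -0.13 with equal totals and by -0.07 after quantile normalization. Reads of Mif can be shared with its processed pseudogenes, and how shared reads were counted is not given in the sources used here.

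Pgf, a placental growth factor, and Adm, the vasoactive peptide adrenomedullin, were near the limit of detection and were not tested. Pgf had 0.84, 0.849 and 0.642 in VC and 0.222, 0.39 and 0.996 in control libraries, on 5 to 24 recovered reads. Adm had 0.527, 0.481 and 0.23 in VC and 0.399, 0.155 and 0.372 in control libraries, on 2 to 7 reads. Both genes overlapped between groups.

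Mitochondrial targets had a median log2 fold change of -0.10 over 5 tested members (-0.03 with equal totals), of which 2 had an unadjusted p under 0.05 (all tested genes, 17.2%). Fam162a, a mitochondrial protein linked to cell death, had 163.4, 138.6 and 154.9 in VC and 189.1, 176.7 and 223.9 in control libraries. Every VC value of Fam162a was below every control value, with a log2 fold change of -0.36 (SE 0.097; adjusted p = 0.141 by limma). Control replicate 3 was the highest library, and the fold change without it was -0.27 (adjusted p = 0.168). Wdr5b, on the opposite strand, shares 19.8% of the Fam162a exons and reached at most 3.11. Ak4, a mitochondrial adenylate kinase, had 16.5, 14.9 and 16.9 in VC and 18.7, 17.9 and 18.1 in control libraries. Its groups did not overlap, with a log2 fold change of -0.17 (SE 0.061; adjusted p = 0.226 by limma), or -0.10 with equal totals.

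The mitophagy receptors and Higd1a gave no such separation. Bnip3 had 52.9, 37.5 and 47.2 in VC and 47.9, 38.0 and 49.6 in control libraries. In both groups replicate 2 was the low library, and the group means of 45.9 ± 7.80 in VC and 45.1 ± 6.26 in control libraries (SD, n = 3 each) differed by far less than that spread. Bnip3l, its paralogue, averaged 40.3 ± 2.35 in VC and 41.7 ± 4.003 in control libraries. A Bnip3l pseudogene is counted apart in the table, and reads may be split between them. Higd1a, a small protein of the inner mitochondrial membrane, averaged 38.8 ± 2.60 in VC and 41.9 ± 5.88 in control libraries.

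The 5 targets in transcription and signalling all had fold changes above 0 (all tested genes, 7505 of 13972), with a median of 0.17 on the log2 scale. Mxi1, however, was at -0.02 after quantile normalization and at -0.07 without control replicate 2. An unadjusted p under 0.05 was found for 3 of the 5 (all tested genes, 17.2%). Ndrg1, a hypoxia and differentiation gene, had 20.2, 18.3 and 20.02 in VC and 14.4, 15.4 and 15.7 in control libraries. The groups did not overlap, with a log2 fold change of 0.34 (SE 0.060), the smallest adjusted p of any member (limma adjusted p = 0.0633). Bhlhe40, a transcriptional repressor, had 54.2, 53.6 and 52.7 in VC and 43.5, 46.6 and 47.5 in control libraries. Its groups did not overlap either, with a log2 fold change of 0.22 (SE 0.044; adjusted p = 0.0822 by limma).

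Neither Ndrg1 nor Bhlhe40 was called by limma with the deposited scaling. Ndrg1 passed in 4 and Bhlhe40 in 3 of the 15 alternatives. Ddit4, an inhibitor of mTORC1, had 56.2, 50.9 and 52.4 in VC and 47.7, 42.7 and 51.2 in control libraries. VC replicate 2 lay below control replicate 3, and the log2 fold change of 0.17 (SE 0.072; adjusted p = 0.289 by limma) was 0.10 without control replicate 2. Mxi1, an antagonist of Myc, averaged 13.3 ± 0.0327 in VC and 13.2 ± 1.39 in control libraries. Ankrd37, an ankyrin-repeat protein, averaged 3.33 ± 0.485 in VC and 3.03 ± 0.205 in control libraries on 33 to 46 reads. Its exons overlap 2 genes on the opposite strand, among them Ufsp2, which reached 54.3.

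Targets of the endoplasmic reticulum, lipid droplets and pH had fold changes above 0 in all 4 tested members (all tested genes, 7505 of 13972). Hilpda, however, was at -0.03 without VC replicate 3. Ero1a, the oxidase that drives disulfide formation in the endoplasmic reticulum, had 89.9, 67.5 and 86.2 in VC and 67.8, 56.6 and 67.4 in control libraries. VC replicate 2 lay at the level of control replicates 1 and 3, and the other VC libraries lay above all controls. The log2 fold change was 0.33 (SE 0.119, limma adjusted p = 0.230), which was 0.46 without VC replicate 2 (adjusted p = 0.171) and 0.25 without control replicate 2. Plin2, a lipid droplet coat protein, had 70.5, 75.5 and 75.2 in VC and 62.6, 68.0 and 70.6 in control libraries. The highest control value of Plin2 lay just above the lowest VC value, and the log2 fold change was 0.14 (SE 0.054, limma adjusted p = 0.270), or 0.09 without control replicate 1 and 0.21 with equal totals.

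Hilpda, an inhibitor of lipid droplet lipolysis, averaged 32.0 ± 2.80 in VC and 31.3 ± 1.46 in control libraries (SD, n = 3 each). Of the carbonic anhydrases, Car12 averaged 16.1 ± 1.60 in VC and 14.4 ± 1.58 in control libraries. Car9, which in many cells is among the most hypoxia-responsive genes, had 0.74, 0.845 and 1.02 in VC and 1.12, 0.273 and 0.209 in control libraries. Control replicate 1 was the highest of the 6 for Car9, on 4 to 20 reads, and the gene was not tested.

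Among the feedback genes, Cited2, which competes with HIF for its coactivators, had 130.7, 139.5 and 139.2 in VC and 149.2, 145.1 and 158.6 in control libraries. All VC values of Cited2 were lower, with a log2 fold change of -0.14 (SE 0.046; adjusted p = 0.192 by limma), which was -0.07 with equal totals. Siah2, a ubiquitin ligase that acts on Egln proteins, averaged 15.5 ± 1.21 in VC and 15.3 ± 0.801 in control libraries. Wsb1, a ubiquitin ligase receptor, averaged 128.3 ± 3.38 in VC and 131.0 ± 1.11 in control libraries. Both overlapped between groups.

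The members also varied between libraries of the same group, and the low library was often the one numbered 2. Within VC, replicate 2 held the lowest value for 16 of 26 tested members (61.5%), against 34.4% of all tested genes. Within control, replicate 2 was also lowest for 16 of 26 (61.5%), against 30.6% of all tested genes. In control these were 14 of 19 targets (73.7%) and 2 of 7 regulators (28.6%). In VC they were 11 of 19 targets (57.9%) and 5 of 7 regulators (71.4%). Replicate 2 was lowest in both groups for 10 of 26 members (38.5%), where 10.9% of all tested genes showed this. The 10 were Egln1, Egln2, Bnip3, Bnip3l, Fam162a, Ak4, Ddit4, Car12, Ero1a and Hilpda.

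The median deviation of the 19 tested targets from their group mean was -0.06 in VC replicate 2 and -0.07 in control replicate 2 on the log2 scale. For the 7 tested regulators it was -0.0449 in VC replicate 2 and 0.00941 in control replicate 2. Over all tested genes the same medians were -0.00146 in VC replicate 2 and 0.00235 in control replicate 2. For Bnip3 the deviation was -0.27 in VC replicate 2 and -0.23 in control replicate 2, and for Ero1a it was -0.25 and -0.17 in the same libraries. This pattern was noticed after the values were seen and was not tested; the members share the same 6 libraries, so they are not separate observations of it.

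**Figure D3:**
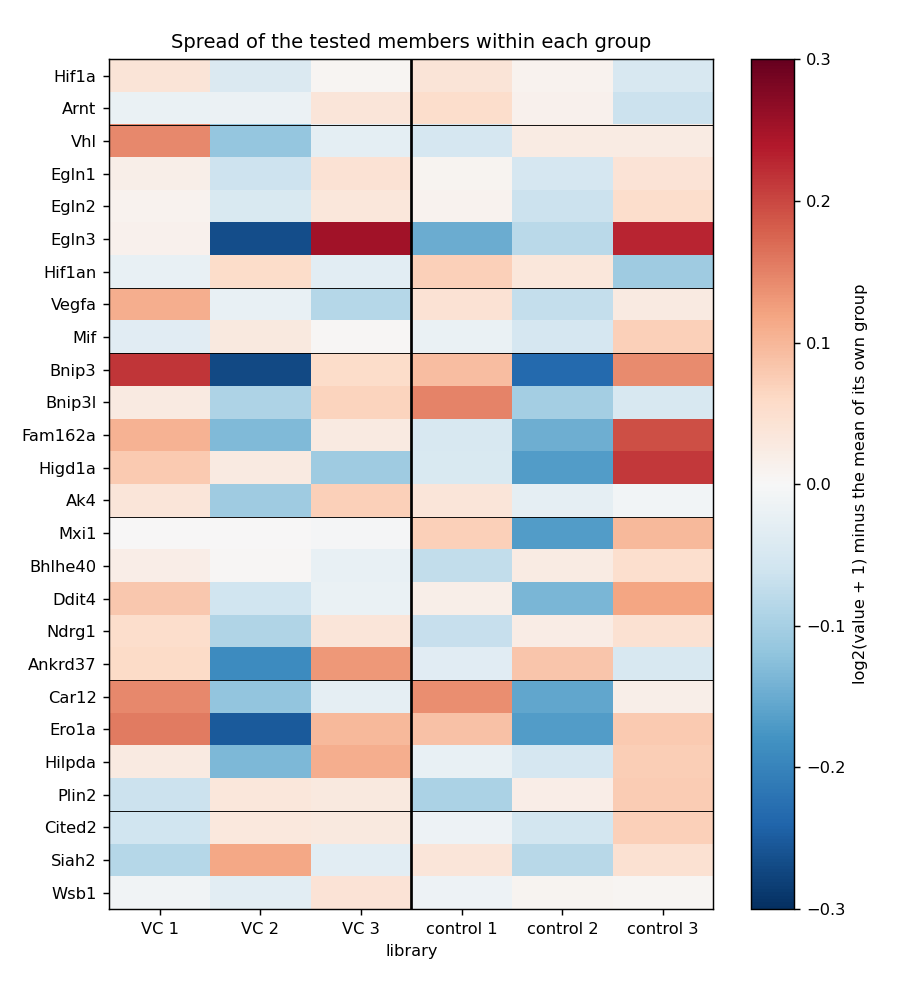
Log2(value + 1) of the 26 tested members minus the mean of the same gene in its own group, for VC libraries 1 to 3 (left) and control libraries 1 to 3 (right); blue is below and red above the group mean. Bnip3, Ero1a, Fam162a and Car12 are blue in replicate 2 of both groups.

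Other genes of the pathway were taken from lists made by their known roles. Of 20 further components of HIF control, 17 were tested and none passed limma over all genes, and 3 had an unadjusted p under 0.05, all lower in VC (17.6%, near the 17.2% of all tested genes). The alpha subunit relative Hif3a and the Arnt relative Arnt2 stayed at or below 0.194 in every library. Elob and Eloc, the elongins that join Vhl to its ligase, had log2 fold changes of -0.19 (SE 0.047) and -0.23 (SE 0.058), with limma adjusted p of 0.128 and 0.130. Both were among the 4 of 17 with all 3 VC values below the control values (all tested genes, 11.6%). All VC values lay above for 1 of the 17 (all tested genes, 13.9%).

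Of 46 further targets outside glycolysis, 29 were tested. An unadjusted p under 0.05 was found for 5 of the 29 (17.2%, against 17.2% of all tested genes), 2 higher and 3 lower. At a limma adjusted p under 0.05, 0 were higher and 3 lower in VC, against 0.429% and 0.258% of all tested genes. Of those that fell, P4ha1, a collagen prolyl hydroxylase, averaged 103.5 ± 4.41 in VC and 133.2 ± 4.09 in control libraries, and Sap30, a subunit of a histone deacetylase complex, averaged 55.9 ± 4.54 in VC and 75.9 ± 2.91 in control libraries (SD, n = 3 each). The limma adjusted p was 0.0293 for P4ha1 and 0.0411 for Sap30. The median log2 fold change of the 29 genes was -0.00047, or 0.07 with equal totals. Of the 29, 2 were called lower with equal totals and 2 after quantile normalization.

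Of 21 glycolytic HIF targets, 19 were tested, with fold changes above 0 for 7 and below 0 for 12. Of all 13972 tested genes, 7505 were above 0 and 6467 below. An unadjusted p under 0.05 was found for 13 of the 19 (68.4%), 3 higher and 10 lower in VC. Over all tested genes it was 17.2%, 9.05% higher and 8.2% lower. At a limma adjusted p under 0.05, 0 were higher and 4 lower, against 0.429% and 0.258% of all tested genes. The log2 fold changes of the 19 ran from -0.51 to 0.36, and the median of -0.12 shrank to -0.05 both with equal totals and after quantile normalization. Aldoa entered through 1 row with only 18 to 42 recovered reads, at 0.29 on the log2 scale. Whether another row holds more of its reads was not checked. The 4 called lower were Pfkl, a phosphofructokinase subunit, Pgk1, Ldha, a lactate dehydrogenase subunit, and the enolase Eno1, by 0.25 to 0.51 on the log2 scale. Of the 19, 2 were called lower after quantile normalization. For these 7 calls in the wider pathway, limma called 0 or 1 genes of the whole table when any library but control replicate 3 was left out, and 82 without control replicate 3, which held 5 of the 7. Whether the glycolytic targets differed from the non-glycolytic members was not tested. In these lists replicate 2 was lowest in both groups for 13 of 29 further non-glycolytic targets (44.8%) and 10 of 19 glycolytic targets (52.6%), beside the same 10.9% of all tested genes.

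**Figure D4:**
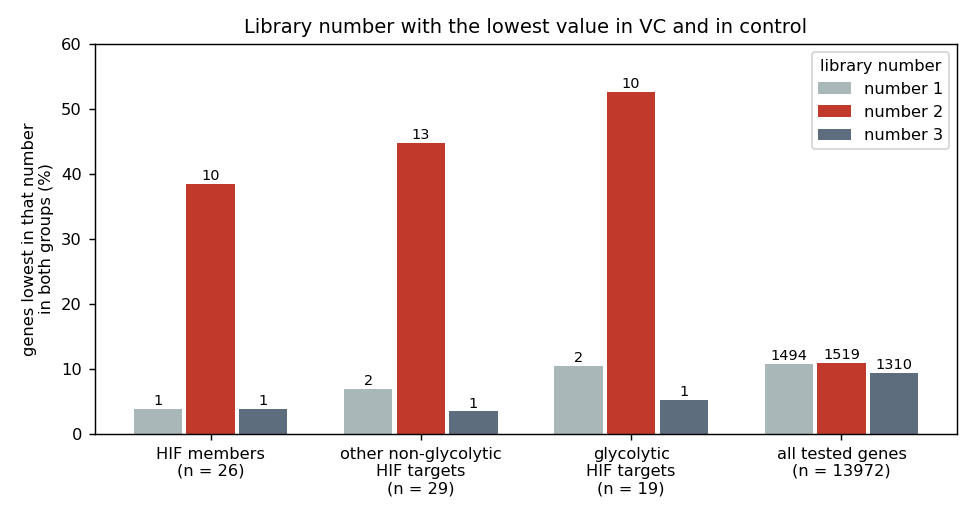
Share of genes whose lowest VC value and lowest control value both fell in the library of the same number (number 1, 2 or 3), for the 26 tested HIF members, 29 further non-glycolytic HIF targets, 19 glycolytic HIF targets and all 13972 tested genes; figures on the bars are gene counts. Number 2 reaches 38.5%, 44.8% and 52.6% in the HIF groups and 10.9% over all genes.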

How the data were processed

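RNA from TM4 cells was sequenced from TruSeq libraries, per the labels' protocols. Reads were aligned with HISAT2 to GRCm39, per the submitters' processing notes; the sources used here do not give the counter or annotation. The authors deposited a length-normalised signal with 3 decimals, which behaves as TPM times 1 factor per library (totals 966031 to 1058206); its table name mentions TMM. Columns were matched to samples by group letter and number.

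Symbols and exon lengths came from GENCODE M21 (GRCm38). Value times exon length gave whole reads (within 0.1) for 98.7% to 98.9% of values tested, up to 1000 reads. These recovered reads served for depth and 1 alternative only.

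The 13972 genes at 1 or above in at least 3 libraries were compared as log2(value + 1) by limma-trend (limma 3.58.1, R 4.3.3; moderated two-sided test), adjusted over all genes by Benjamini-Hochberg at a threshold of 0.05. Fold changes are VC minus control and understate changes of low genes. The procedure was run on simulated counts with known changes. Those counts had 1 fixed spread setting and no library that stood apart, so they do not show how well small changes are found here. The members and lists were chosen with earlier results of these data known. All 30 members are named; in 3 further pathway lists up to 6 members past the threshold are named, except 1 that is not reported here. Members given in every library are those with an unadjusted p under 0.05 and Hif1a, Epas1, Arnt, Vhl, Egln1 and Vegfa; Bnip3, Pgf, Adm and Car9 were added after their values were seen, as were the elongins, Hif3a and Arnt2. Alternatives changed the pseudocount, filter, scaling, weights, replicate block, test and libraries included. Figures used matplotlib 3.10.9.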

Additional observations from a re-analysis of the deposited data

How the results depend on the processing

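The 15 alternatives kept the direction of 17 of the 26 tested members. No member was called with another pseudocount, no filter, quantile normalization, the replicate block or any library left out. A filter at a value of 5 called 1 (Ndrg1), equal totals 2 and array weights 2 (Ndrg1 and Bhlhe40 in both), and limma-voom on recovered reads 4. Over all genes limma called 96; there were 30 with no filter, 183 with the filter at 5, 217 with equal totals, 254 with array weights, 548 with limma-voom and 0 to 82 when 1 library was left out (82 without control replicate 3, 0 or 1 otherwise). Of all calls, 62.5% were higher in VC with the deposited scaling and 83.9% with equal totals. The regulator median was 0.136 with equal totals and 0.0329 to 0.0704 with a library left out; the target median was 0.0884 with equal totals and -0.0267 to 0.0593 with a library left out.

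The 9 members whose sign changed had log2 fold changes from -0.10 to 0.03. With equal totals Bnip3l was at 0.0249, Vegfa at 0.0576 and Wsb1 at 0.0414; with quantile normalization Mxi1 was at -0.0181, Siah2 at -0.00889 and Wsb1 at 0.00453. With 1 library left out, Bnip3 ranged from -0.0995 to 0.153, Bnip3l from -0.0965 to 0.0291, Egln3 from -0.219 to 0.0402, Higd1a from -0.186 to 0.00314, Hilpda from -0.0292 to 0.0929, Mxi1 from -0.0723 to 0.0593, Siah2 from -0.0382 to 0.0625 and Vegfa from -0.0679 to 0.0299. The cause of these shifts was not tested.

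Same-numbered libraries did not deviate together over all genes (r = -0.0186, -0.0115 and 0.00506 for numbers 1, 2 and 3), and no library correlated best with its own number. Over the 26 tested members the same correlations, across genes that share these 6 libraries, were 0.268, 0.286 and 0.127, and over the 19 glycolytic targets 0.727, 0.663 and 0.65. With the replicate block limma called 0 genes (2039 at an unadjusted p under 0.05), and the smallest adjusted p of a member was 0.131, for Ero1a; none of the 7 calls in the wider pathway passed there, and 2 of the 7 passed with no filter. Depth limits Ankrd37 (33 to 46 recovered reads) and Egln3 (66 to 118) most among the tested members.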
